A study of Mus musculus with 2 samples.

Results

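Cycling plasmablasts were singled out from the eYFP+ cells of perigonadal white adipose tissue (gWAT) of mice on a low-fat diet (LFD) or a high-fat diet (HFD). A barcode was taken as a cycling plasmablast when it had a unique molecular identifier (UMI, 1 counted transcript) of at least 10 of 14 plasma cell genes and of at least 4 of 10 cell cycle genes, with no more than 1 of the stromal genes Pdgfra and Wt1 detected. The plasma cell genes were Sdc1, Tnfrsf17, Prdm1, Jchain, Xbp1, Mzb1, Derl3, Irf4, Txndc5, Fkbp11, Eaf2, Trp53inp1, Creld2 and Igkc. The cycle genes were Mki67, Top2a, Birc5, Cenpf, Cdk1, Ccnb2, Nusap1, Tpx2, Ube2c and Prc1. These conditions held for 836 of 18753 cells, 207 of 10216 in the LFD library and 629 of 8537 in the HFD library. Since detection of these genes chose the cells, every difference from other cells given here is a description and carries no test.

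Both libraries came from male Cyp1a1 fate reporter mice (Cyp1a1Cre x R26LSL-eYFP), in which Cre recombinase made from the Cyp1a1 gene removes a stop cassette and leaves a cell and its descendants yellow fluorescent. Cyp1a1 is a target of the aryl hydrocarbon receptor (AHR), so an eYFP+ cell carries a record of past Cyp1a1 activity. The mice had eaten LFD (10% fat) or HFD (60% fat) for 12 weeks and were given FICZ, a ligand of AHR, 5 days before the tissue was taken, at 10 mg/kg. The stromovascular fraction was sorted for live eYFP+ cells, mice of a diet were pooled, and 1 library was made for each diet with 10x Genomics 3′ chemistry. Because no cell could be traced to a mouse, the 2 diets could be compared as libraries only, and the intervals given here cover counting error alone, without any variation between animals, sorts or library preparations.

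Plasmablasts are B lineage cells caught between activation and the resting plasma cell. They have begun to secrete antibody but still divide, whereas a mature plasma cell has left the cell cycle and gives a large part of its RNA to immunoglobulin. The switch is driven by the transcription factors Irf4, Prdm1 (Blimp-1) and Xbp1, which close down the B cell programme of Pax5 and enlarge the endoplasmic reticulum (ER). In mouse fat and body cavities, B-1 cells are a known source of IgM-secreting cells, and some of their antibodies are built from the same germline V genes in every animal.

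There were 11281 barcodes with 114311020 UMIs in the LFD library, and 9631 with 119498750 in the HFD library. A barcode was kept with 500 to 40000 UMIs, at least 100 genes and under 12.5% mitochondrial UMIs, which gave kept cells a median of 10636.5 UMIs in LFD and 13231 in HFD. The libraries shared 27 barcode sequences, none of them a cycling plasmablast in both. Another 58 LFD and 62 HFD barcodes met the plasma and cycle conditions but had both Pdgfra and Wt1 and were left out, and 24 HFD barcodes were left out for exceeding the UMI limit. Pdgfra or Wt1 alone was detected in 44 (21.3%) LFD and 76 (12.1%) HFD cycling plasmablasts, against 15.6% and 6.04% of non-cycling plasma cells. A doublet caller (Scrublet) marked 17 of 207 (8.21%) and 36 of 629 (5.72%) of them, compared with 9.03% and 7.71% of all kept cells.

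Cycling plasmablasts took 2.03% (95% binomial interval 1.76 to 2.32%) of kept LFD cells and 7.37% (6.82 to 7.94%) of kept HFD cells, a ratio of 3.64 (3.103 to 4.28). All cells meeting the plasma conditions, cycling or not, numbered 379 in LFD and 1407 in HFD, or 3.71% and 16.5% of kept cells. Within these plasma cells the order of the diets was the other way round. Cycling cells were 54.6% (49.5 to 59.7%) of the LFD plasma cells and 44.7% (42.1 to 47.3%) of the HFD ones, a ratio of 0.819 (0.698 to 0.962). When every cell was thinned to 5000 UMIs the cycling shares were 35.3% and 31.6%, and the interval of their ratio of 0.895 (0.708 to 1.14) then included 1. A rule of at least 11 plasma genes likewise gave 0.843 with an interval (0.712 to 1.00) that reached 1. Among all cells with at least 4 cycle genes, whatever their type, cycling plasmablasts made up 11.03% of 1876 in LFD and 36.7% of 1714 in HFD.

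Plasma cells fell into a group with few cycle genes and a group with many, with fewer cells between them. In LFD, 62 plasma cells had none of the 10 cycle genes, 19 had 5, and 41 had all 10. In HFD the corresponding numbers were 248, 63 and 173. The values of cells just inside and just outside the limits follow. The 23 LFD cells with 4 cycle genes had a median of 11402 UMIs and 312 CPM (counts after scaling that sum to 1000000) of Mki67, and the 23 with 3 cycle genes had 11424 UMIs and 210 CPM. The 65 HFD cells with 4 had 12375 UMIs and 417 CPM, and the 81 with 3 had 12436 UMIs and 351 CPM. At the plasma limit, immunoglobulin RNA was 20.1% of UMIs in the 31 LFD cycling cells with 10 plasma genes and 15.7% in the 12 with 9, and 21.8% in 19 and 15.6% in 5 cells in HFD. Those 19 HFD cells had a median of 11692 UMIs and 421 CPM of Top2a, and the 5 had 7127 UMIs and 867 CPM.

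**Figure D1:**
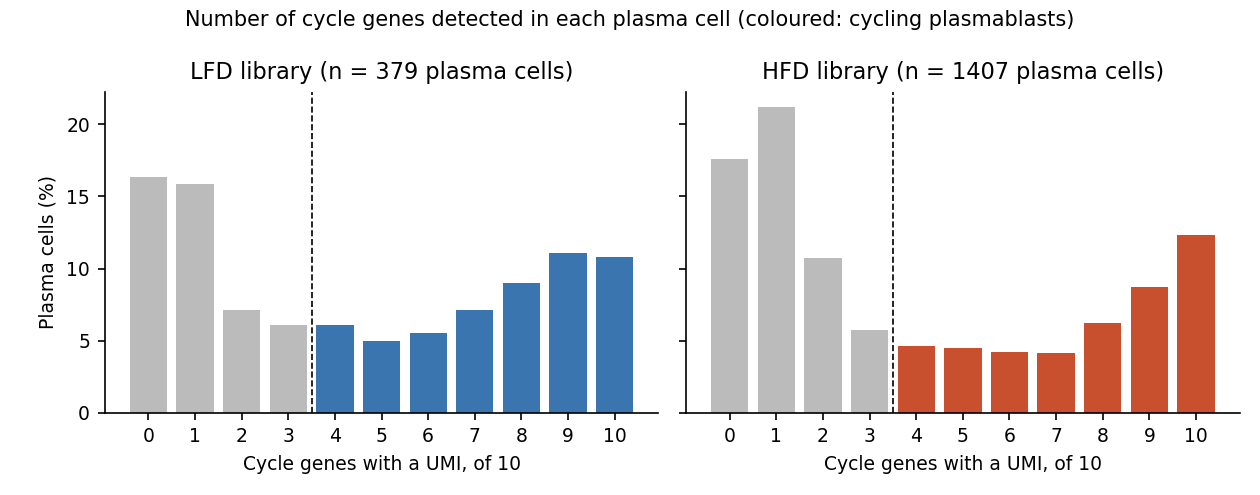
Percent of plasma cells (y axis) by the number of the 10 cycle genes with a UMI (x axis), for 379 LFD and 1407 HFD plasma cells. Coloured bars right of the dashed line are the cycling plasmablasts, and in both libraries the bars are lowest between the cells with 0 or 1 cycle gene and those with 8 to 10.

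Most plasma cell markers are themselves genes of the rule, so their detection in these cells is a description. Mzb1, which helps IgM fold and assemble, had a UMI in 100% of cycling plasmablasts of both libraries, against 11.1% and 22.1% of cycling stromal cells, that is, cycling cells with both Pdgfra and Wt1, which should not make it. That class has no limit on plasma genes. It includes the 58 LFD and 62 HFD barcodes that met the plasma conditions but had both stromal genes. Jchain, the joining chain of polymeric antibody, had one in 99.03% and 100%, against 20.6% and 58.4% of cycling stromal cells. Pou2af1, a coactivator of immunoglobulin genes that the rule did not use, was detected in 100% and 99.2%, against 8.27% and 11.3%. The doublet caller marked 21.1% and 18.4% of cycling stromal cells, against 9.03% and 7.71% of all kept cells, and without the marked cells the cycling stromal shares were 4.10% and 15.9% for Mzb1, 15.8% and 54.9% for Jchain and 1.94% and 3.42% for Pou2af1. How much of the remaining detection was free RNA was not tested. Median depths were 16093 and 18037 UMIs in cycling plasmablasts and 17404 and 21824 in cycling stromal cells. Sdc1 (CD138) was detected in 78.7% and 85.1% but marked no single type here, as 59.2% and 62.7% of cycling stromal cells had it too. Tnfrsf17 (BCMA), the receptor for the plasma cell survival factor APRIL, was detected in 47.3% and 58.3% and in none of the 188 LFD and 95 HFD cycling B cells. Of the defining B cell genes, Pax5 had a UMI in 1.93% and 1.59% of cycling plasmablasts, and in 72.3% and 85.3% of cycling B cells. Markers of 7 other cell types were lower than in the other kept cells in both libraries, and those of T cells were nearly level in LFD and higher in HFD. Summed over 3 genes each, fibroblast markers reached 1030 CPM in LFD and 569 in HFD cycling plasmablasts, against 18974 and 18625 in the other kept cells, macrophage markers 49.2 and 54.6 CPM against 484 and 704, and neutrophil markers 53.5 and 5.82 against 368 and 76.8. Endothelial markers were at 27.1 and 23.8 CPM against 117 and 134, mesothelial markers at 8.14 and 12.5 against 148 and 324, mural markers at 2.33 and 1.40 against 68.0 and 80.7, and the 2 erythroid markers at 0.388 and 0.699 against 89.9 and 75.3. The T cell markers Cd3e, Cd3g and Trac summed to 3.49 and 7.68 CPM against 3.65 and 3.44, from 9 and 66 counts, most of them of Cd3g.

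Cycling plasmablasts had more UMIs than the plasma cells that did not cycle. Detecting at least 4 cycle genes is easier in a deeper cell, so the rule itself favoured this difference. Non-cycling plasma cells, defined as plasma cells with at most 1 cycle gene, numbered 122 and 546 and had medians of 10316 and 11613.5 UMIs. Genes detected per cell were 2958 and 3167 in cycling plasmablasts and 1878.5 and 1936.5 in non-cycling plasma cells. Depth differed between the classes. With cells thinned to 5000 UMIs the medians were 1467 and 1441 genes in cycling plasmablasts and 1175 and 1114 in non-cycling plasma cells, while cycling B cells reached 1840 and 1885. Thinning left out 2 cycling plasmablasts of each library, 1 and 10 non-cycling plasma cells, and 24 and 11 cycling B cells as too shallow.

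Immunoglobulin RNA was a smaller share of the cycling cells. It made up 23.4% of all UMIs in LFD and 27.6% in HFD cycling plasmablasts, against 34.0% and 39.7% in non-cycling plasma cells and 1.27% and 1.09% in cycling B cells. Single cells spread widely around this, with 80% of LFD cycling plasmablasts between 11.6% and 34.4% and 80% of HFD ones between 15.7% and 40.3%. Plasma cells with 2 or 3 cycle genes lay between, at 27.5% and 34.9%. Among the cycling plasmablasts themselves the share hardly moved with the number of cycle genes, from 24.7% at 4 or 5 genes to 23.1% at 8 to 10 genes in LFD and from 26.7% to 27.6% in HFD. UMIs of an S phase list (DNA replication genes) peaked at 6 or 7 cycle genes, at 0.414% and 0.484% of UMIs outside immunoglobulin genes, and were at 0.305% and 0.323% at 8 to 10. UMIs of a G2/M list (mitosis genes) kept climbing, to 0.676% and 0.732%. The 10 cycle genes of the rule are mostly mitotic, so these bins partly order cells by phase.

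**Figure D2:**
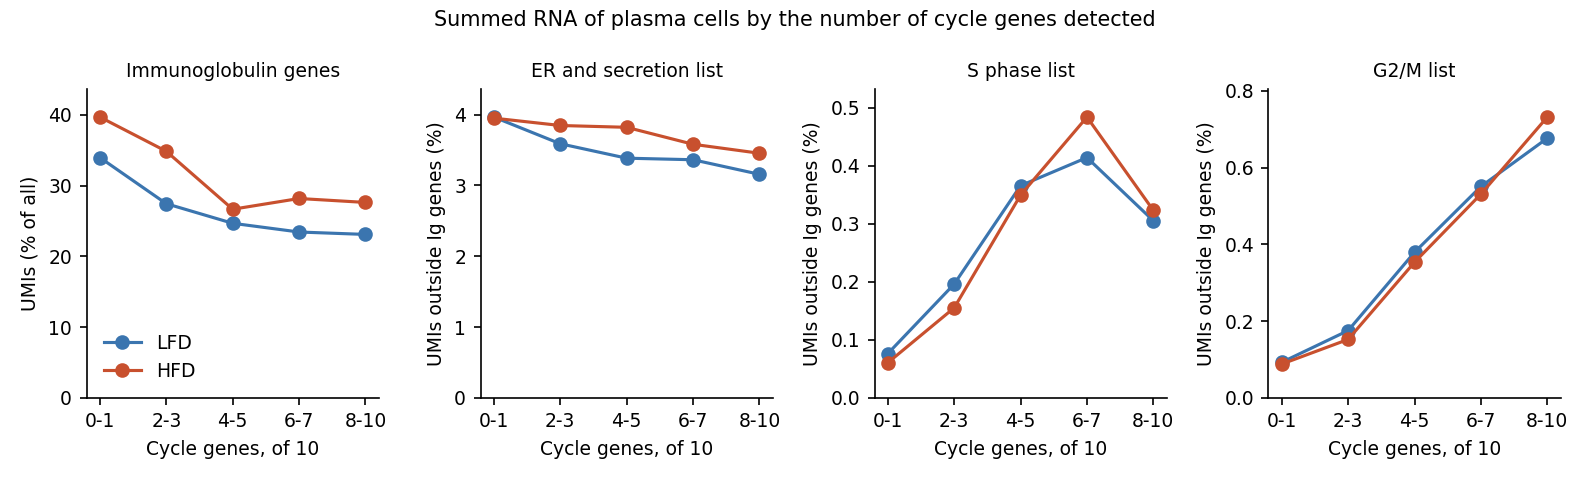
Summed UMIs (y axes, percent of all UMIs for immunoglobulin genes and percent of UMIs outside them for the other lists) in plasma cells grouped by the number of cycle genes detected (x axes), LFD in blue and HFD in red. Immunoglobulin RNA is highest in cells with 0 or 1 cycle gene, at 34.0% and 39.7%, and the S phase list is highest at 6 or 7.

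The first comparison asked which genes set the cycling plasmablasts apart from non-cycling plasma cells. Counts were summed over the cells of a class in each library and given as CPM over UMIs outside immunoglobulin genes, so that the antibody RNA did not weigh on other genes. Of 5695 genes with at least 50 counts in each library, 446 (7.83%) were at least 2-fold higher in cycling plasmablasts in both libraries and 46 (0.808%) at least 2-fold lower. The rule used this contrast, so these numbers are the setting for the gene groups and no finding. The median gene had a log2 ratio of 0.16 in LFD and 0.17 in HFD. Relative to all UMIs, immunoglobulin included, the medians were higher by 0.21 and 0.26 and the counts became 678 and 12.

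The replication machinery was raised as a block. Of 37 measured S phase genes (44 listed), 33 were past the 2-fold limit and the other 4 were above 1 in both libraries, with median log2 ratios of 2.27 and 2.97. Pcna, the sliding clamp of DNA polymerase, was at 286 CPM in LFD and 335 in HFD cycling plasmablasts and at 68.5 and 58.4 in non-cycling plasma cells, which is 4.18-fold (3.21 to 5.53) and 5.73-fold (5.02 to 6.57). Mcm5, a subunit of the replicative helicase, was at 98.1 and 96.1 CPM against 16.0 and 11.1. Rrm2, the ribonucleotide reductase subunit made for S phase, was at 416 and 430 CPM against 16.0 and 15.5. Nucleotide synthesis moved with it, 8 of 12 genes past the limit and all 12 above 1. Tyms, which makes thymidylate, stood 9.59-fold and 8.99-fold higher, and Impdh2, the rate-limiting enzyme of guanine nucleotide synthesis, 2.33-fold and 3.22-fold. Of the canonical histone genes, 8 of 67 were measurable by this minimum and 5 passed the limit. These transcripts largely lack poly(A) tails and are poorly caught by this chemistry.

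The mitotic genes differed most, an order that the rule partly set, since the 10 cycle genes splitting the classes are mostly mitotic. Of 44 measured G2/M genes (46 listed), 42 passed the limit and all were above 1, with medians of 3.12 and 3.91. Ccna2 (cyclin A2), which no rule used, had 545 counts in LFD cycling plasmablasts and 0 in the non-cycling cells, at least 61.6-fold more against a floor of 3 counts, and stood 79.4-fold (44.3 to 159) higher in HFD. Cdc20, which activates the anaphase-promoting complex, was at 227 and 196 CPM against 10.3 and 7.39. Plk1, a mitotic kinase, was at 59.7 and 56.2 CPM against 1.14 and 1.23. Foxm1, the transcription factor of the G2/M programme, was at 34.5 and 38.8 CPM against 2.28 and 2.46. Of the 15 measured cycle regulators (21 listed) 8 passed, all upward. Cdkn1a (p21), a cyclin-dependent kinase inhibitor, had too few counts to be among them and was lower, at 10.8 and 9.55 CPM against 24.0 and 21.7. The G1 cyclin Ccnd2 differed little, at 1273 and 1157 CPM against 1018 and 911, within 2-fold in both libraries.

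Outside the cycle, immunoglobulin and rule genes, the 10 genes highest by the smaller of their log2 ratios in the libraries had few or no counts in non-cycling plasma cells. Esco2, which acetylates cohesin, had 69 LFD and 313 HFD counts in cycling plasmablasts and 0 in non-cycling cells of either library, at least 7.81-fold and 49.3-fold more. Shcbp1, a midbody protein, was at least 19.1-fold higher in LFD and 231-fold (41.3 to 9146) in HFD, where the comparator had 1 count. Kif4, the chromokinesin, was 32.2-fold and 28.3-fold higher. The others were Cep55, Neil3, Sgo2a, Pbk, Kif15, Mxd3 and Cit.

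**Figure D3:**
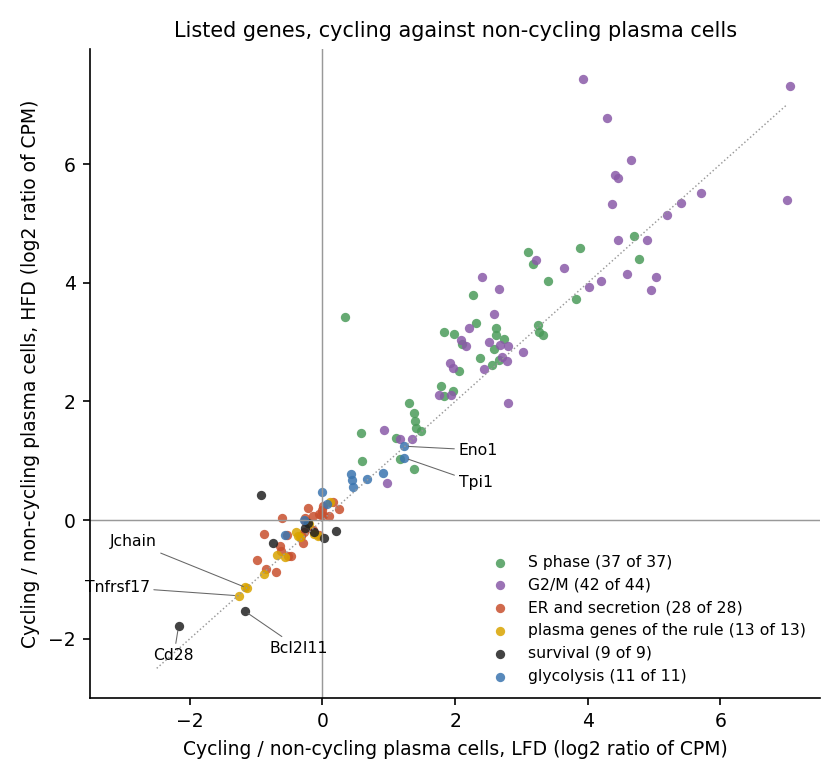
Log2 ratio of CPM, cycling plasmablasts over non-cycling plasma cells, in LFD (x axis) and HFD (y axis), 1 point a gene, coloured by gene list. S phase and G2/M genes lie in the upper right (2 of 44 G2/M genes are not drawn because non-cycling cells had no count in a library), ER and secretion genes around 0, and Cd28, Tnfrsf17, Jchain and Bcl2l11 in the lower left.

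Promoter sequence is shown for 3 mitotic genes because such genes share short elements there. Cdc20 and Plk1 are of the G2/M list, and Ccnb2 is a cycle gene of the rule. The promoters were the 250 bases before the transcription start in RefSeq, build GRCm38.p6, written 5′ to 3′ on the gene's strand. Capitals mark the CHR (cell cycle homology region) element TTTGAA or TTTAAA and CCAAT, searched on both strands. Ccnb2 (cyclin B2) lies at chr9:70421555-70421804 on the minus strand, Cdc20 at chr4:118437344-118437593 on the minus strand and Plk1 at chr7:122159185-122159434 on the plus strand.
Ccnb2: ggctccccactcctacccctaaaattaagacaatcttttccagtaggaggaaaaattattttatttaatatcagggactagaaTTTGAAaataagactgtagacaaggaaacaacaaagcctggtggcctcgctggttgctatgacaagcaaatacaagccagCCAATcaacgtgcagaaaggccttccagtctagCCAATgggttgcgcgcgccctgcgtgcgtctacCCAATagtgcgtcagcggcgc
Cdc20: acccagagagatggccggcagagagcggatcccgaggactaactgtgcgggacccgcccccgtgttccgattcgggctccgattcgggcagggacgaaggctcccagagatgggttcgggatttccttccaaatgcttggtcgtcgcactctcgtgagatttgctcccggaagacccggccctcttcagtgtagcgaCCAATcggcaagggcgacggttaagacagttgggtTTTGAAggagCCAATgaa
Plk1: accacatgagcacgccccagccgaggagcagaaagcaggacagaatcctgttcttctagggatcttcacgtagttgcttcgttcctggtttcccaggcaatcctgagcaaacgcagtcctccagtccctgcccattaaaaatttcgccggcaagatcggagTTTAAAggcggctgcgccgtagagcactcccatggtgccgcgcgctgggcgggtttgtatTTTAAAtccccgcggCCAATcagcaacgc

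The CHR letters stood in 19 of 41 G2/M promoters found in the table (46.3%) and in 25.5% of the first promoters of all 27025 genes, and CCAAT in 32 of 41 (78.0%) against 34.5%. S phase promoters held CCAAT in 23 of 32 (71.9%) and the CHR letters in 6 of 32 (18.75%). CCAAT was as common in an ER and secretion list, in 18 of 23 promoters (78.3%). A match is a description of the letters and does not show a bound factor.

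The secretory machinery differed little between dividing and non-dividing cells. None of 28 genes of the ER and secretion list passed the 2-fold limit, 16 were below 1 in both libraries and 5 above 1, and median log2 ratios were -0.26 and -0.09. Relative to all UMIs they were -0.05 and 0.17, so their direction in HFD depended on the scaling. Xbp1, the transcription factor that expands the ER, was at 2408 and 2751 CPM in cycling plasmablasts and 2626 and 3251 in non-cycling plasma cells. Calr (calreticulin), a chaperone of glycoproteins, was at 2755 and 2814 CPM against 2773 and 2488. Pdia6, a disulfide isomerase, was at 1451 and 1444 against 1444 and 1229. The ER chaperone Hspa5 (BiP) was lower in LFD, 2443 against 3734 CPM, a ratio of 0.654, and nearly level in HFD, 2352 against 2305. Ssr4, a translocon-associated subunit of the list, was at 0.554-fold and 0.562-fold, and Txndc5, a disulfide isomerase of the plasma rule, at 0.545-fold and 0.533-fold.

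Against cycling B cells the same list stood far apart. These cells had at least 4 cycle genes and at least 5 of 8 B cell genes, with at most 6 plasma genes. Of 28 ER and secretion genes, 27 were past the limit upward, with medians of 2.61 and 2.57, whereas over all 6455 genes measured in this comparison 639 (9.9%) were higher and 844 (13.1%) lower. Those counts depended on the scaling, being 409 and 1474 over all UMIs and 865 and 599 with median-ratio size factors. Hspa5 was at 2443 and 2352 CPM in cycling plasmablasts and 339 and 434 in the B cells, 7.21-fold and 5.42-fold. Xbp1, 37.1-fold and 41.8-fold higher from 64.9 and 65.8 CPM, is a gene of the plasma rule and was set apart by the choice of both classes. No gene of the ER and secretion list is in that rule. But the rule holds genes of the same machinery, such as Xbp1, Mzb1 and Txndc5. The choice of both classes therefore favoured this contrast too.

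Promoters of 3 ER genes are shown because they carry the ER stress element, CCAAT, any 9 bases and CCACG, which is marked in capitals on either strand. They come from the same table and build, Hspa5 at chr2:34771840-34772089 on the plus strand, Calr at chr8:84846932-84847181 on the minus strand and Pdia6 at chr12:17266339-17266588 on the plus strand.
Hspa5: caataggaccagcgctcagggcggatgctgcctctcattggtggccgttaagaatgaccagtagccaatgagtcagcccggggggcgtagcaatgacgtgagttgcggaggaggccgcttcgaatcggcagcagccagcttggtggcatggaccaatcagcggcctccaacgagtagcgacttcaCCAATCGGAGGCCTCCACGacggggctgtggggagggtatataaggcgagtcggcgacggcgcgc
Calr: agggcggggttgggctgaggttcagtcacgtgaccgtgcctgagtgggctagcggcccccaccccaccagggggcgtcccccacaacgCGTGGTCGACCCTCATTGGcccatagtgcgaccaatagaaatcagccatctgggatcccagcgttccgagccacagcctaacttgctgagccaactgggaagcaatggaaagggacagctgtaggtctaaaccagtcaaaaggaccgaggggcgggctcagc
Pdia6: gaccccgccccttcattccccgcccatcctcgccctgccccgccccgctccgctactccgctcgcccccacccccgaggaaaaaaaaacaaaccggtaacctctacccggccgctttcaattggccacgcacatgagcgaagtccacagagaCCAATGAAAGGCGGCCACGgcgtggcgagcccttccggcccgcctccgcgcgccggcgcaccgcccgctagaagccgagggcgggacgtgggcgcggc

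The element was found in 6 of 23 promoters of the ER and secretion list (26.1%), those of Hspa5, Calr, Hsp90b1, Canx, Pdia6 and Dnajc3, and in 33 of 27025 first promoters (0.122%). It was in none of the 41 G2/M and 32 S phase promoters.

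The plasma genes of the rule chose both classes, so their values here are a description. Of the 13 measured plasma genes of the rule that are not immunoglobulin genes, 3 were at least 2-fold lower and 12 were below 1, but over all UMIs 1 was 2-fold lower and 9 were below 1 in each library, with medians of -0.18 and -0.03. Jchain (chr5:88519809-88527891, minus strand, GRCm38) was at 10280 and 15990 CPM in cycling plasmablasts and 22600 and 35410 in non-cycling plasma cells, ratios of 0.455 and 0.452. Tnfrsf17 was at 75.2 and 94.8 CPM against 180 and 230, ratios of 0.417 (0.336 to 0.517) and 0.413 (0.375 to 0.454). Trp53inp1, a stress protein linked to autophagy, had ratios of 0.443 and 0.459. Over all UMIs Tnfrsf17 stayed under 0.5, at 0.483 and 0.496, whereas Jchain was at 0.528 and 0.543 and Trp53inp1 at 0.514 and 0.551. With the classes set on counts thinned to 5000 UMIs the LFD ratios were 0.514 for Jchain, 0.513 for Tnfrsf17 and 0.532 for Trp53inp1, no longer past the limit. The transcription factors of the switch differed little. Irf4 was at 152 and 198 CPM against 141 and 160, and Prdm1 at 56.6 and 80.5 against 65.1 and 84.0.

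Survival genes included 2 of 9 measured (11 listed) past the limit, both downward. Cd28 (chr1:60716800-60773359, plus strand), a costimulatory receptor that long-lived plasma cells keep, was at 13.95 and 19.1 CPM in cycling plasmablasts and at 62.8 and 66.0 in non-cycling plasma cells, ratios of 0.222 (0.142 to 0.344) and 0.289 (0.237 to 0.353). Bcl2l11 (BIM; chr2:128126038-128162547, plus strand), which promotes apoptosis, was at 44.6 and 62.5 CPM against 101 and 181, ratios of 0.443 (0.333 to 0.592) and 0.345 (0.308 to 0.386). A receptor that sustains plasma cells and a protein that promotes their death were thus both lower. Mcl1, the BCL-2 family member plasma cells need, was nearly level at 531 and 576 CPM against 580 and 664. With the classes set on thinned counts, Cd28 was at 0.307 and 0.320 and Bcl2l11 at 0.434 and 0.390. Over all UMIs Cd28 was at 0.258 and 0.347, and Bcl2l11 at 0.514 and 0.415, no longer past the limit in LFD. Of the other genes named by rank, Fam214a had ratios of 0.247 and 0.317, Mxd4, a MAX partner that opposes MYC, 0.388 and 0.372, the mitophagy receptor Bnip3l 0.378 and 0.470 and the stress factor Atf5 0.441 and 0.467. Over all UMIs Bnip3l was at 0.438 and 0.565 and Atf5 at 0.512 and 0.562, outside the limit in 1 library or both. Vav3, Sla, Mir22hg, Ubxn6 and Gm16174 completed the 10 lowest. Of these, Ubxn6 (0.458 in LFD), Mir22hg (0.454 in HFD) and Gm16174 (0.462 in HFD) were also outside the limit over all UMIs in the library given. Myc itself was at 17.4 and 14.7 CPM against 3.43 and 9.12, with few counts in the LFD comparator.

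Surface and response genes outside these lists mostly stayed within 2-fold. Slamf7, a receptor of plasma cells, was at 125 and 152 CPM against 198 and 230, and Ly6c2 at 250 and 343 against 459 and 581. Of 9 measured genes of the maturity list (15 listed), none passed the limit and 6 were below 1 in both libraries. All 5 measured immediate early genes were below 1 without passing, with medians of -0.30 and -0.46, and so were all 5 measured genes of the integrated stress response, at -0.51 and -0.26. Over all UMIs 2 of the 5 stress response genes were above 1 in each library, with medians of -0.30 and -0.0002, and 2 of the 5 immediate early genes were above 1 in LFD and none in HFD. None of 77 ribosomal protein genes passed. Glycolysis had 2 of 11 genes past the limit, Tpi1 at 178 and 143 CPM against 75.4 and 69.2 and Eno1 at 121 and 98.2 against 51.4 and 41.4.

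The second comparison set the cycling plasmablasts beside cycling B cells, which share the division but not the secretory fate. The 8 B cell genes that chose the cycling B cells included Ms4a1, Cd79a, Cd79b, Pax5, Cd22, Ebf1 and Bank1. All 8 were past the limit downward, which their choice partly fixed. The identity list held 10 further genes, of which 7 were measured, and all 7 were past the limit downward, with median log2 ratios of -4.25 and -4.46. So were all 6 MHC class II genes, at -3.89 and -3.90. Cd74, the class II invariant chain, was at 1901 and 1652 CPM in cycling plasmablasts and 7257 and 7691 in cycling B cells. Spib, a B cell transcription factor that opposes plasma cell fate, was at 1.55 and 1.63 CPM against 229 and 250, and Siglecg, an inhibitory receptor of B-1 cells, at 5.81 and 5.36 against 265 and 286. The position of the cycle genes depended on the scaling. Of 43 measured S phase genes 8 were past the limit (18.6%), all downward, and of 44 G2/M genes 6 (13.6%), all downward, beside 13.1% of all genes, with medians between -0.51 and -0.59 where the median of all genes was -0.13. Over all UMIs 17 and 16 were lower, beside 22.8% of all genes, and with median-ratio size factors 1 and 2 were lower and 2 S phase genes higher. Esco2, for example, was higher in the cycling B cells, at 72.9 and 78.1 CPM.

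The 8 genes highest against cycling B cells were near or at 0 counts there. Bhlha15 (MIST1), which shapes secretory cells, had 109 and 458 counts and none in cycling B cells, 19.3-fold and 15.9-fold more against a floor of 3 counts. Its lower interval bounds were 15.45-fold and 12.9-fold. Pycr1, an enzyme of proline synthesis, was at least 38.6-fold and 29.5-fold higher, Cpeb3, which binds mRNA, at least 43.8-fold and 35.2-fold, and Tnfrsf17, a gene of the plasma rule, at least 34.4-fold and 28.3-fold. Vegfa, the growth factor of blood vessels, was at 61.6 and 129 CPM against 0 and 1.12. Ovol3, Endou and Cacna1h were the others of the 8 highest, and Ltb, Spib, Pax5, Cd22, Hhex, Tnfaip8l2, Clec2i and Siglecg the 8 lowest. Il10, a regulatory cytokine, was at 70.5 and 95.6 CPM against 1.46 and 2.23, and at 82.2 and 103 in non-cycling plasma cells. A UMI of Il10 was found in 31.9% and 32.3% of cycling plasmablasts and in 3.14% and 5.71% of cycling stromal cells, and in 18.0% and 17.2% against 0.992% and 2.16% at 5000 UMIs. B-1 genes were mixed. Spn (CD43) was at 64.7 and 89.1 CPM, Cd5 had no LFD count and stood at 0.466 CPM in HFD, and Zbtb32, a repressor of B-1 cells, was at 2.33 and 2.33 against 193 and 204 in cycling B cells.

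The antibodies these cells made were almost all IgM. A cell was given an isotype when 80% of at least 50 constant region UMIs came from 1 heavy chain gene. Ighm (chr12:113418558-113422730, minus strand) was assigned in 203 of 207 LFD cells (98.1%, 95.1 to 99.5%) and 626 of 627 HFD cells (99.8%, 99.1 to 100%). Igha was assigned in 3 and 1 cells and Ighg2b in 1 LFD cell. Kappa light chain, Igkc (chr6:70726435-70726966, plus strand), took 189 of 202 assigned LFD cells (93.6%) and 405 of 427 in HFD (94.8%), but 202 HFD cells could not be assigned, having both kinds.

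Few V genes recurred. The libraries read the 3′ end, so V gene UMIs were scarce, 240 heavy chain V UMIs in LFD and 1305 in HFD cycling plasmablasts. Ighv11-2 gave 162 (67.5%) of them in LFD and 1125 (86.2%) in HFD, no cell holding over 8.64% of its UMIs, while 28 and 42 heavy chain V genes were seen at all. Of kappa V UMIs, Igkv14-126 gave 580 of 1187 (48.9%) and 2840 of 3896 (72.9%). The V regions of 2 recurrent pairs are shown because UMIs of the heavy and the light gene were found in the same cells. Ighv11-2 with Igkv14-126, and Ighv12-3 with Igkv4-91, are pairs known from B-1 cells whose antibodies bind phosphatidylcholine. The last 280 bases of each annotated transcript are given (GENCODE M21, GRCm38), with the codon of the conserved cysteine before the third hypervariable loop in capitals. Ighv11-2 lies at chr12:114048241-114048812 (minus strand), Igkv14-126 at chr6:67896172-67896642 (plus), Ighv12-3 at chr12:114366521-114366954 (minus) and Igkv4-91 at chr6:68768555-68769103 (minus).
Ighv11-2: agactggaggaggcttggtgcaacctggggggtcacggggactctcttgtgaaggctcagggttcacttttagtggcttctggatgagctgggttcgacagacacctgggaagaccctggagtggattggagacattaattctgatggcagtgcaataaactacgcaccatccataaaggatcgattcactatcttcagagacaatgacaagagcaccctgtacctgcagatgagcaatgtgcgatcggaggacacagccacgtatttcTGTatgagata
Igkv14-126: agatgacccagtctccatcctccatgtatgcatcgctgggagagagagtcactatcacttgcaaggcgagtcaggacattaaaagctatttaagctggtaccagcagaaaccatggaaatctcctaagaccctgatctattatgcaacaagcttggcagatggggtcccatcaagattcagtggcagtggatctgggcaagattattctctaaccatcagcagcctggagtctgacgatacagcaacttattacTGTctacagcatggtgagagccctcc
Ighv12-3: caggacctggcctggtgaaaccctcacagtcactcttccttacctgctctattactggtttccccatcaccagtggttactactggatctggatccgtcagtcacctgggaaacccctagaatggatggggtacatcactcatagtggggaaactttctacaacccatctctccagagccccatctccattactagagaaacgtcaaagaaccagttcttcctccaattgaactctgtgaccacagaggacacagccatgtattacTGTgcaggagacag
Igkv4-91: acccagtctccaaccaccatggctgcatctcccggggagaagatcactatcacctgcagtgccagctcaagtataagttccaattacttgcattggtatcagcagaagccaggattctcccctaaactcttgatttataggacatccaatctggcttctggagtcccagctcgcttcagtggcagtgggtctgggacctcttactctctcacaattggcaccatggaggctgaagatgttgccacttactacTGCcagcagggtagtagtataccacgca

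Igkv14-126 was found in 65 of 67 LFD cycling plasmablasts with an Ighv11-2 UMI (97.0%) and in 32 of 140 without one (22.9%), and in HFD in 345 of 357 (96.6%) and 124 of 272 (45.6%). The second pair was rarer. Ighv12-3 was detected in 4 LFD and 14 HFD cells, of which 3 and 11 had Igkv4-91, compared with 11 of 203 (5.42%) and 38 of 615 (6.18%) of the other cells. Igkv14-126 was in 0 of the 4 and 2 of the 14. In cycling stromal cells, which should lack both, Ighv11-2 had a UMI in 1.62% and 4.19% and Igkv14-126 in 2.61% and 7.74%, or 0.228% and 1.71%, and 0.342% and 3.27%, without the cells marked as doublets. With neither heavy gene detected there remained 136 LFD (65.7%) and 260 HFD (41.3%) cycling plasmablasts, whose heavy chain was mostly not seen at this depth.

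The Ighv11-2 share was larger in HFD. A UMI was found in 32.4% of LFD and 56.8% of HFD cycling plasmablasts, and in 12.7% and 32.5% after thinning to 5000 UMIs. In non-cycling plasma cells it was found in 31.1% and 53.7%, and gave 61.2% and 86.1% of heavy V UMIs, close to the cycling cells of the same library. By the stricter assignment (80% of at least 5 V UMIs) Ighv11-2 took 7 of 8 LFD cells and 83 of 84 HFD cells. Only 16 HFD cycling plasmablasts had both a heavy and a light V gene assigned this way, Ighv11-2 with Iglv1 in 13 (81.3%, 54.4 to 96.0%) and with Igkv14-126 in 3 (18.8%, 4.05 to 45.6%), and Iglv1 UMIs were in nearly all cells, kappa cells included.

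Many HFD cycling plasmablasts carried RNA of both light chains. Cells were counted as having both when Iglc1 (lambda 1 constant gene, chr16:19061618-19062071, minus strand) made up 10% to 90% of at least 50 UMIs of Igkc and Iglc1, limits set after the values had been seen. That held for 5 of 207 LFD (2.42%, 0.789 to 5.55%) and 216 of 629 HFD cycling plasmablasts (34.3%, 30.6 to 38.2%). In non-cycling plasma cells it held for 3 of 122 (2.46%) and 121 of 546 (22.2%, 18.7 to 25.9%). The HFD cycling cells with both had medians of 3294.5 Igkc and 1492 Iglc1 UMIs, whereas the other HFD cycling plasmablasts had 2812 and 7. Cycling stromal cells of HFD had 10 and 1, and the part of free RNA in these counts was not tested. Median depth was 20290 UMIs with both and 17156 without, and the doublet caller marked 11 (5.09%) of the cells with both and 6.05% of the others.

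The balance of the chains was compared across division classes. In HFD the median Iglc1 share of cells with both was 32.0% in cycling plasmablasts (80% of cells between 19.6% and 42.6%), 25.8% in plasma cells with 2 or 3 cycle genes and 19.6% in non-cycling plasma cells. Of the 404 HFD plasma cells with both, 216 cycled (53.5%, 48.5 to 58.4%), compared with 413 of 1003 others (41.2%, 38.1 to 44.3%). In LFD 5 of 11 cycled (45.5%, 16.7 to 76.6%), compared with 202 of 368 others (54.9%, 49.6 to 60.1%), the opposite order within a wide interval. The 10% limit acted unequally on the HFD classes. Just outside it, at 5% to 10% Iglc1, were 8 cycling plasmablasts (1.29%) and 35 non-cycling plasma cells (6.51%). The HFD shares and medians of cells with both depend on that limit.

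**Figure D4:**
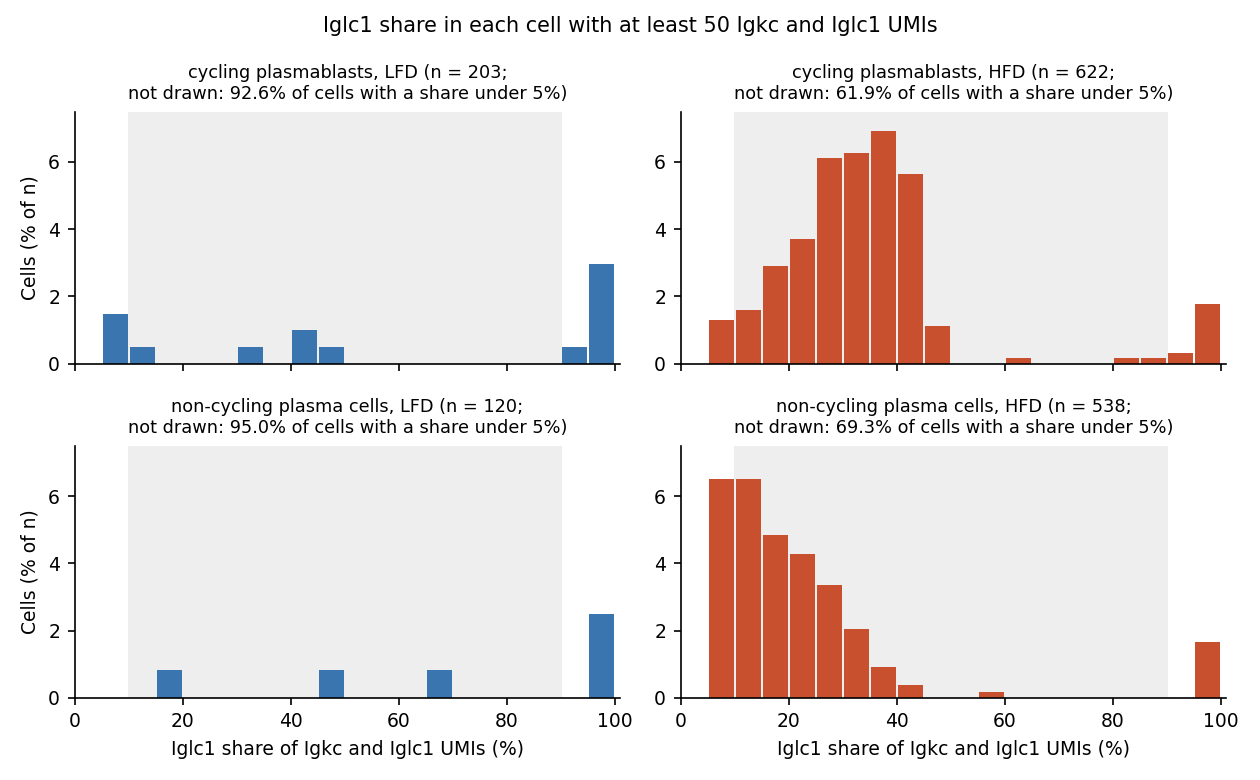
Percent of cells (y axes) by the Iglc1 share of Igkc and Iglc1 UMIs in a cell (x axes), for cells with at least 50 such UMIs in each class and library, with the range counted as both shaded and the cells under 5% not drawn. HFD cycling plasmablasts form a hump inside the shaded range, with a median of 32.0% among cells with both, that lies lower in HFD non-cycling plasma cells (19.6%) and has no counterpart in LFD.

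Cells with both light chains mostly carried the first V gene pair. In HFD cycling plasmablasts Igkv14-126 was detected in 205 of 216 with both (94.9%) and 264 of 413 without (63.9%), and in 72.2% and 45.7% after thinning. Ighv11-2 was in 162 (75%) and 195 (47.2%), or 42.6% and 27.3% after thinning. Igkv4-91 went the other way, in 6 (2.78%) and 43 (10.4%). Of the 5 LFD cells with both, 1 had Igkv14-126. Iglv1, the lambda V gene, could not be used to sort the cells, since its UMIs were in 91.3% and 93.3% of all cycling plasmablasts, kappa cells included.

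The HFD cells with both also differed in other genes, and those named here lay on the same side of 1 in non-cycling HFD plasma cells. Klhl41 (chr2:69670120-69684230, plus strand), a kelch protein best known from muscle, was at 45.7 CPM in cycling plasmablasts with both and 16.1 in the others, a ratio of 2.84 (2.16 to 3.74), and the ratio in non-cycling cells was 3.78. Phlda1, a pleckstrin-domain protein, was at 204 against 94.3 CPM, 2.16-fold (1.92 to 2.43), and 2.05-fold in non-cycling cells. Lower in the cells with both were Gm30211, at 18.5 against 134 CPM, and Asns (asparagine synthetase), at 85.3 against 133, a ratio of 0.644 with 0.464 in non-cycling cells. These genes were picked for their ratios in these cells, so the ratios are descriptions.

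The third comparison asked how diet moved the cycling plasmablasts. Of 8720 genes with at least 50 counts, 146 (1.67%) were at least 2-fold higher in HFD and 113 (1.3%) at least 2-fold lower, and the split became 107 and 133 when CPM was taken over all UMIs. Non-cycling plasma cells had 251 (3.85%) and 125 (1.92%) of 6516, with fewer counts a gene. Without the cells carrying both light chains the cycling numbers were 89 and 98. Without cells marked as doublets the lower genes fell to 48, and without cells having Pdgfra or Wt1 to 48 as well. Setting the classes on thinned counts gave 163 higher and 250 lower genes of 7443. Which side was larger thus depended on the processing.

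Higher in HFD by the rule for named genes were Klhl41, Chac1, H2-T23, Fcho2, Entpd7, Pfn1, Hist1h1b and Fam214a. Klhl41 stood at 5.04 CPM in LFD and 26.9 in HFD, 5.34-fold (3.06 to 10.2), and 3.12-fold without the cells with both light chains. A Klhl41 UMI was in 5.80% and 24.3% of cycling plasmablasts and in 0.629% and 1.90% of cycling stromal cells, and in 0.488% and 8.45% against 0.271% and 0.381% after thinning. H2-T23, a nonclassical MHC class I gene, was at 60.9 CPM in LFD and 142 in HFD, 2.33-fold (1.97 to 2.77), and 2.14-fold in non-cycling plasma cells. Chac1, which degrades glutathione and answers amino acid stress, was at 11.6 and 36.7 CPM, 3.15-fold (2.17 to 4.75), while its ratio in non-cycling cells was 1.43. Vegfa was at 61.6 and 129 CPM, 2.09-fold (1.77 to 2.49), and 1.59-fold in non-cycling cells, but 1.99-fold without cells marked as doublets and 1.98-fold over all UMIs. Hist1h1b, a linker histone gene of S phase, was at 66.3 and 147 CPM, 2.21-fold (1.88 to 2.61). Fam214a, at 2.14-fold, fell just under the limit, to 1.999-fold, without cells having Pdgfra or Wt1 and to 1.94-fold among cells with at least 6 cycle genes.

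Lower in HFD by the same rule were Ddt, Gm26532, Gm49980, Ifi47, Sqle, Ifi203, Gstt1 and Lgals3bp. Ddt, D-dopachrome tautomerase and a relative of the cytokine MIF, was at 507 CPM in LFD cells and 171 in HFD cells, with a ratio of 0.337 (0.313 to 0.364), with 0.305 in non-cycling plasma cells. Its chromosomal neighbour Gstt1, a glutathione transferase, was at 9.69 and 3.14 CPM, 25 and 27 counts. Sqle, an enzyme of cholesterol synthesis, was at 23.6 and 9.43 CPM, a ratio of 0.399. The interferon-inducible genes Ifi47 and Ifi203 had ratios of 0.369 and 0.407, but none of the 5 measured genes of the interferon list passed the limit. Lgals3bp was at 15.9 and 6.17 CPM, a ratio of 0.388 (0.254 to 0.599), and 0.992 (0.494 to 2.21) in non-cycling cells, on 10 LFD counts there. Levels in cycling stromal cells were above those in cycling plasmablasts for 6 of these genes, all but Ddt and Gm49980, for example 105 and 80.2 CPM for Lgals3bp and 103 and 37.9 for Gm26532, which was at 25.2 and 6.29 in cycling plasmablasts. Fibroblast markers fell the same way, from 1030 to 569 CPM. Each of the 8 stayed 2-fold lower without the cells marked as doublets and without those having Pdgfra or Wt1, where Lgals3bp was at 0.401 and 0.271 and Gm26532 at 0.232 and 0.248.

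**Figure D5:**
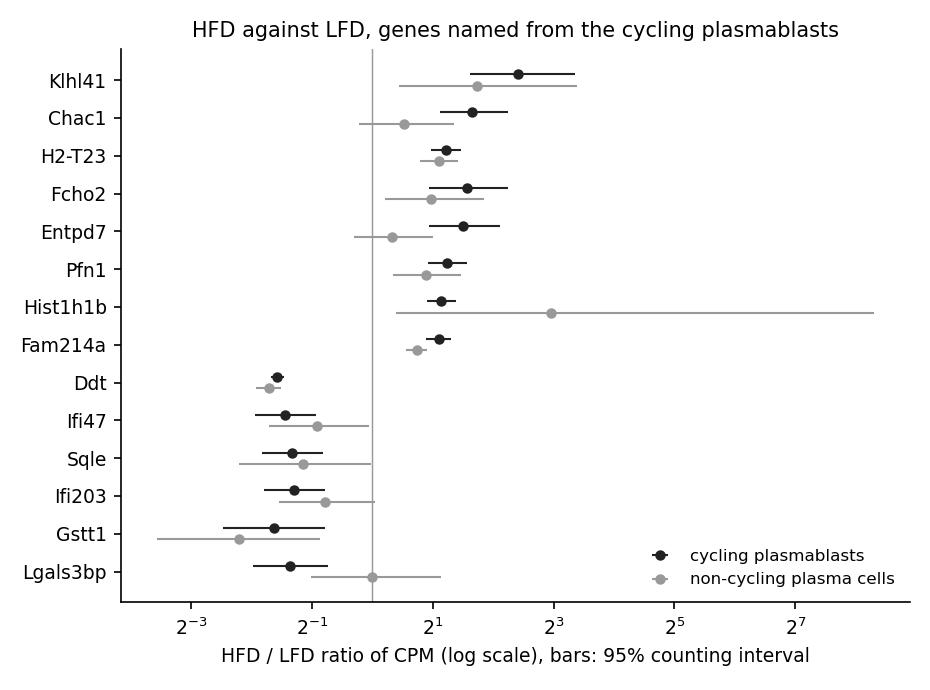
HFD to LFD ratio of CPM (x axis, log scale) for the genes named from the cycling plasmablasts (y axis, gene models without a name left out), with 95% counting intervals as bars, black for cycling plasmablasts and grey for non-cycling plasma cells. Ddt (0.337 and 0.305) and H2-T23 (2.33 and 2.14) have nearly the same ratio in both classes, whereas the intervals of Lgals3bp (0.388 and 0.992) are wide and overlap.

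Most of the gene groups had few members past the limit between diets. Of all 8720 genes, 5006 were above 1, against which the counts of members above 1 are to be read. Of the 13 plasma genes of the rule none passed the limit and 11 were above 1. Of the ER and secretion list none of 28 passed and 23 were above 1, or 16 over all UMIs. All 10 measured survival genes were above 1 and none passed. All 6 MHC class II genes were below 1 and none passed. S phase genes split into 28 above and 16 below 1, and G2/M genes into 34 and 11, where the median log2 ratio of all genes was 0.06. Mki67 (chr7:135689784-135716361, minus strand), a protein of dividing cells, was at 481 and 857 CPM, 1.78-fold, and 1.72-fold in non-cycling plasma cells. The histone genes had 4 of 25 past the limit upward, beside 1.67% of all genes, and 20 above 1. Of 6 measured immediate early genes none passed the limit, 2 were above 1 and 4 below. Fos was at 0.567-fold, Junb at 0.605-fold and Jun at 0.731-fold. Among homing genes the chemokine receptor Cxcr4 was 1.95-fold (1.47 to 2.63) and the integrin subunit Itga4 1.55-fold higher.

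Genes of the AHR pathway, which the reporter follows, summed to 222 CPM in LFD and 182 in HFD cycling plasmablasts over the 8 listed, against 235 and 298 in cycling B cells and 964 and 1286 in cycling stromal cells. The largest part was Tiparp, an AHR target that dampens the receptor, at 93.4 and 84.3 CPM against 73.6 and 102 in cycling B cells. Arnt, the partner with which the receptor binds DNA, was at 20.9 and 21.1 CPM against 28.4 and 37.9 in cycling B cells, and Nqo1 and Ahrr, targets, were between 0.775 and 2.33 CPM. Cyp1a1 was at 8.91 CPM in LFD and 2.44 in HFD, 23 and 21 counts, of which 1 LFD cell held 60.9%. Its HFD to LFD ratio was 0.274, and 0.508 without cells marked as doublets and 0.887 without those having Pdgfra or Wt1. A UMI was in 3.38% and 2.07% of cycling plasmablasts, below the 7.10% and 15.7% of cycling stromal cells. Ahr was at 7.36 and 10.4 CPM, against 28.4 and 48.0 in cycling B cells and 20.6 and 21.1 in cycling stromal cells. Cyp1b1, another AHR target and a gene of stromal cells, was at 58.5 and 31.2 CPM, a ratio of 0.533 that was 1.02 without the cells marked as doublets. Fibroblast markers had the same order, 1030 and 569 CPM, and their part in these values was not tested.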

How the data were processed

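Live eYFP+ cells of the gWAT stromovascular fraction were measured in 1 LFD and 1 HFD library, grouped by the labels. The authors deposited raw UMI counts per gene and called cell, made with Cell Ranger 4.0.0 per the file headers. The submitters' processing notes name mm10, STAR, Seurat 4.1.0 and bcl2fastq 2.17.1.14, and the annotation release is not given in the sources used here. Members and gene lists were chosen with earlier results of these data known. Of 32285 gene IDs, 32158 were found in GENCODE M21 (GRCm38), used for positions only.

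Counts were summed per class and library (Python 3.11.15, scipy 1.17.1) and scaled to CPM over UMIs outside 392 immunoglobulin genes. Ratios have exact conditional 95% Poisson intervals and shares Clopper-Pearson intervals, which cover counting error only. A comparator at 0 was given a floor of 3 counts. Values given as at least a fold rest on that floor and can exceed the lower interval bound. A gene was past the limit at a ratio of at least 2 or at most 0.5 with at least 50 counts. With 1 library per diet no p-value was computed. The ratio script was also run on simulated counts. Doublets were scored with Scrublet (scanpy 1.11.5) and were kept. Named genes were the 10 highest and 10 lowest against non-cycling plasma cells and the 8 and 8 of each other comparison, ranked by the smaller library's log2 ratio or, for diet, by the interval bound nearest 1, with no cell holding over 10% of the counts of a class with at least 20 counts or, for diet, of the higher library. Alternatives covered rule limits, scaling, count minimum, thinning and doublets.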

Additional observations from a re-analysis of the deposited data

Results flagged for a closer look

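A few listed genes had counting intervals of their ratios on opposite sides of 1 in the groups set side by side. In each case the difference itself was not tested, and with many listed genes some would be found by counting alone.

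Diet ratios of 5 genes pointed opposite ways in cycling plasmablasts and non-cycling plasma cells. Cd93, a surface receptor of plasma cells, had an HFD to LFD ratio of 0.526 in cycling plasmablasts and 5.82 in non-cycling plasma cells. Rrm1, the large subunit of ribonucleotide reductase, had 1.29 and 0.448. Ccl5, a chemokine, had 10.2 and 0.431, with 1 LFD count in cycling plasmablasts. The MHC class II genes were H2-DMb2, at 0.508 in cycling plasmablasts with no LFD count in non-cycling plasma cells, and H2-Aa, at 0.768 and 1.30.

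The ratio of cycling to non-cycling plasma cells lay on opposite sides of 1 in the libraries for 4 genes, H2-Aa among them again. Isg15, an interferon-induced ubiquitin-like protein, was at 0.630 in LFD and 1.27 in HFD. The ER chaperone Hsp90b1 was at 0.830 and 1.03, and the surface protein Ly6a at 0.902 and 1.14. H2-Aa was at 1.34 and 0.791.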

How the results depend on the processing

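No called result reversed under any alternative for which it was checked. No paired analysis was possible because each diet has 1 library and the labels give no replicate numbers, and for the same reason no replicate could be left out. Of the alternative values for shares and counts, 78 stayed within their interval or within 1.5 times the main count, and 34 did not. The leaving out of cells with both light chains, of cells with Pdgfra or Wt1, the classes set on thinned counts, the cycling stromal shares without marked cells and the split of the B cell identity list were chosen after seeing the data. Values against a class at 0 counts (25 ratios) have no alternative value.

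Cycling plasmablasts as a share of kept LFD cells were 1.72% with at least 11 plasma genes or with Igkc left out, 1.12% after thinning and 1.60% without cells with Pdgfra or Wt1. In HFD they were 8.32% with at least 3 and 6.61% with at least 5 cycle genes, 4.997% after thinning and 6.48% without cells with Pdgfra or Wt1. Thinning gave an HFD to LFD ratio of 4.45. Their share of plasma cells was 60.7% and 50.5% with at least 3 cycle genes, 48.6% and 40.1% with at least 5, and 35.3% and 31.6% after thinning, LFD first. Ighv11-2 took 68.5% of LFD and 88.8% of HFD cells with 50% of at least 2 V UMIs.

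Against non-cycling plasma cells, CPM over all UMIs gave 678 higher and 12 lower genes, a minimum of 20 counts 95 lower, 1 count in each group 411 lower, per-cell means 29 lower, thinned classes 234 higher and 18 lower, and leaving out cells with Pdgfra or Wt1 28 lower. Against cycling B cells, CPM over all UMIs gave 409 higher and 1474 lower, and 1 count in each group 1651 lower. Between diets, a minimum of 20 counts gave 378 higher and 235 lower, 1 count 632 and 1188, doublet removal 48 lower, leaving out cells with Pdgfra or Wt1 48 lower, and leaving out cells with both light chains 89 higher. Thinned classes, not among the alternative values counted above, gave 163 higher and 250 lower between diets. Lower minimums test more genes and thinned classes fewer. The cause of the other differences, the rise in lower genes between diets under thinned classes among them, was not tested.

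With CPM over all UMIs, 22 of 180 ratios named or listed against non-cycling plasma cells moved across 1 and 16 changed their call, and under thinned classes 6 and 15. Between diets, of the named ratios only those of Vegfa, Fam214a and Cdkn1b changed their call under the alternatives checked, which left out thinned classes. That of Cyp1a1, which had under 50 counts and so no call, crossed 0.5. Few V gene UMIs per cell limit every statement on V genes.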

Other observations

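Homing genes differed between cycling plasmablasts and cycling B cells. Of 13 measured (16 listed), 4 were at least 2-fold higher and 7 at least 2-fold lower in both libraries, where 9.9% and 13.1% of all genes were. Ccr7, the chemokine receptor that guides lymphocytes to T cell zones, was at 3.10 CPM in LFD and 0.582 in HFD cycling plasmablasts and at 117 and 140 in cycling B cells. S1pr1, the receptor for exit into lymph, was at 2.71 and 4.42 CPM against 78.0 and 53.5, and Klf2, the factor that maintains it, at 114 and 90.3 against 656 and 520. Higher were the hyaluronan receptor Cd44, at 214 and 257 CPM against 55.4 and 81.5, the selectin ligand Selplg, at 231 and 237 against 81.6 and 115, and the integrin subunit Itgal, at 76.3 and 97.6 against 29.9 and 41.3. Against non-cycling plasma cells none of 10 measured homing genes passed the 2-fold limit.

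Of 7 measured genes of sterol and fatty acid synthesis, 5 were above 1 against non-cycling plasma cells in both libraries, where 3512 of all 5695 genes were in LFD and 3666 in HFD, with median log2 ratios of 0.36 and 0.58 and none past the limit in both. Fasn, the fatty acid synthase, was at 49.2 and 38.5 CPM against 33.1 and 26.6.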
